A study of Mus musculus with 4 samples.

Results

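Runx3 binding was examined at 10 genes of the ETS family that act in myeloid cells, namely Spi1, Spib, Spic, Ets1, Ets2, Fli1, Elf1, Elf4, Etv3 and Etv6. The genes were chosen by name, with earlier results of these data known. Gene positions came from the GENCODE M1 annotation on mm9. A Runx3 peak was counted for a gene when its centre lay in the gene body or within 50 kb of it. By this rule 46 of the 15121 peaks of the deposited list belonged to these genes. In 2 biological replicates, the peaks came from chromatin of freshly sorted splenic CD11chiMHCII+CD4+ DC from about 15 mice, with 2 Runx3 immunoprecipitates made with an antibody raised in house and 2 input controls of whole cell extract. The labels give the strain C57BL/6 for 3 of these samples and C57BL/7 for the second input control, and give no age, sex or genetic modification. The authors called peaks once on the pooled samples, so no peak has a value per replicate, no spread between replicates can be given, and no comparison below was tested. Each peak carries a MACS2 score, for which no source gives a unit, and a higher score is read here only as a stronger peak within the list. The list holds no expression values, so neither the labelled cell type nor the expression of the genes could be checked.

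ETS proteins share a DNA-binding domain that recognises a GGAA core. PU.1, encoded by Spi1, is the best known of them in myeloid cells and is needed for the formation of DC and macrophages. RUNX proteins bind the hexamer TGTGGT together with their partner CBFB. RUNX1 is known to bind an upstream enhancer of Spi1 in blood progenitors, and to occupy many sites next to PU.1 in myeloid cells. In childhood leukaemia the human ETV6 gene is often fused to RUNX1.

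The sequences of 5 peak regions are given first, because they show the RUNX hexamer, its neighbours and its absence at the strongest peaks. All are on the plus strand of mm9, 5′ to 3′, and were read from the NCBIM37 genome, the same assembly. Capitals mark TGTGGT or its reverse complement ACCACA, and GAGGAAGT, a PU.1 motif, or its reverse complement ACTTCCTC. In the Etv6 region, which holds neither hexamer strand, capitals mark ACGTCA, the reverse complement of TGACGT, a motif linked to the DC factor zDC. The 200 bases around the centre of the strongest Spi1 peak (chr2:90923035-90923234) are followed by a weaker Spi1 peak (chr2:90921125-90921197), a pair of Fli1 regions (chr9:32307840-32307923 and chr9:32316273-32316526) and the 200 bases around the centre of the strongest Etv6 peak (chr6:134170442-134170641).
Spi1 intron 1: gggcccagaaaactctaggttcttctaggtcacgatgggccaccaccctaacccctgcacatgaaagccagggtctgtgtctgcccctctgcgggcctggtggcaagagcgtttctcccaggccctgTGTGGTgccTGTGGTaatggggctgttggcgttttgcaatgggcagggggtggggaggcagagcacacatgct
Spi1 upstream: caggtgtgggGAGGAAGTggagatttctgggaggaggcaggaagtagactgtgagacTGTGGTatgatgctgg
Fli1 intron 1, weaker peak: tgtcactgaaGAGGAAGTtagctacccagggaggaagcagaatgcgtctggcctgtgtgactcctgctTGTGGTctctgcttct
Fli1 intron 1, strongest peak: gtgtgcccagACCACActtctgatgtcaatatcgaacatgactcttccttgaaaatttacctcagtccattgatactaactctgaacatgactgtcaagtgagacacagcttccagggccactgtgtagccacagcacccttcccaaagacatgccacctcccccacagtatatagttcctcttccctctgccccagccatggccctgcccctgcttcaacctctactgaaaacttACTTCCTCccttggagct
Etv6 intron 2: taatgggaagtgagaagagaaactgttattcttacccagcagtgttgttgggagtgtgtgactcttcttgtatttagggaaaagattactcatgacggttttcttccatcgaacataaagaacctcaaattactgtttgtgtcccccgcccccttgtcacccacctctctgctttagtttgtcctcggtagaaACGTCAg

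Runx3 peaks lay at 8 of the 10 genes, and no peak was called at Ets1 and Ets2. Of the 22367 protein-coding genes 62.6% had at least 1 peak in the same window, and with 10 genes in the set a share of 8 is close to this background. The number of peaks per gene ran from 0 to 14, with a median of 4, where the median of all protein-coding genes was 1. Etv6 had 14 peaks, Spi1 and Fli1 had 8 each, Spib had 6, Etv3 had 5, Elf1 had 3, and Spic and Elf4 had 1 each. Etv6 thus held more peaks than 99.9% of protein-coding genes, and Spi1 and Fli1 more than 97.5%. The genes are long, with a median of 42.7 kb against 15.4 kb, and a longer window collects more peaks. Counted per 100 kb of window, the median was 2.57 peaks for the 10 genes and 0.880 for all protein-coding genes, with 6.00 at Spi1, 5.66 at Spib, 4.36 at Etv3, 4.19 at Etv6 and 3.65 at Fli1. By this density Spi1 stood above 97.3% of protein-coding genes, Spib above 96.4%, Etv3 above 92.3%, Etv6 above 91.8% and Fli1 above 88.5%. The density also counts peaks of the flanks at other genes' starts, which weigh most for short genes. All 6 peaks of Spib were nearest to another gene's TSS.

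**Figure D1:**
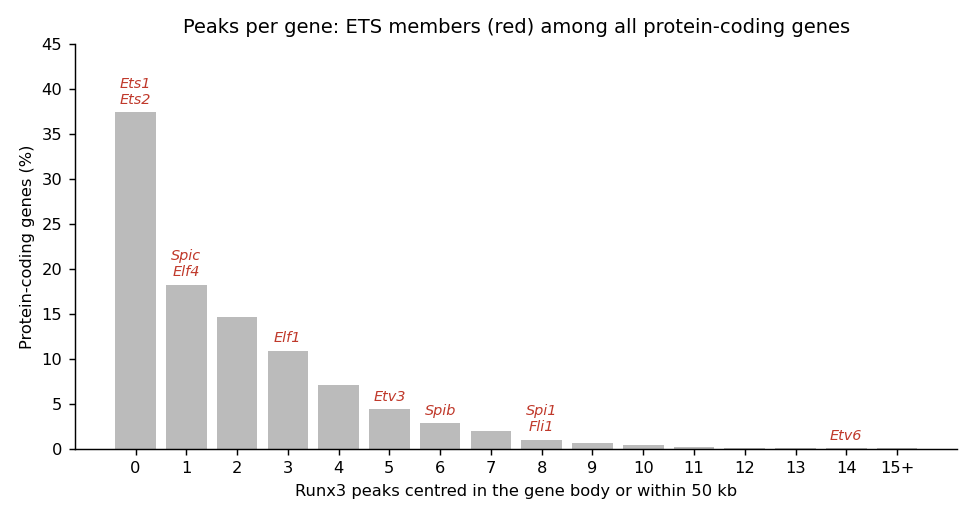
Share of protein-coding genes in percent (vertical axis) with each number of Runx3 peaks centred in the gene body or within 50 kb (horizontal axis, 15 and more joined), with the names of the ETS genes in red above the bar of their own number. Ets1 and Ets2 stand above 0, and Etv6, with 14 peaks, stands near the right end of the distribution.

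The peaks fell into distinct places in the genes. In the gene bodies lay 26 peaks, of which 25 were centred in an intron and 1 in an exon of the longest transcript, and the remaining 20 lay in the flanks. A peak inside the gene body was found at 7 of the 10 genes, against 23.2% of protein-coding genes. Spib, Elf1, Elf4 and Etv3 had 1 such peak each. These shares do not allow for gene length, and the 10 genes are long, with a median of 42.7 kb against 15.4 kb. At 4 of the 10 genes, Spi1, Fli1, Elf1 and Etv6, a peak lay within 1 kb of one of their own TSS, against 24.9%. The flanks of 50 kb also reach other promoters. For 34 of the peaks the nearest TSS belonged to the ETS gene, and for 12 it belonged to another gene, including all 6 peaks of Spib and the single peak of Spic.

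**Figure D2:**
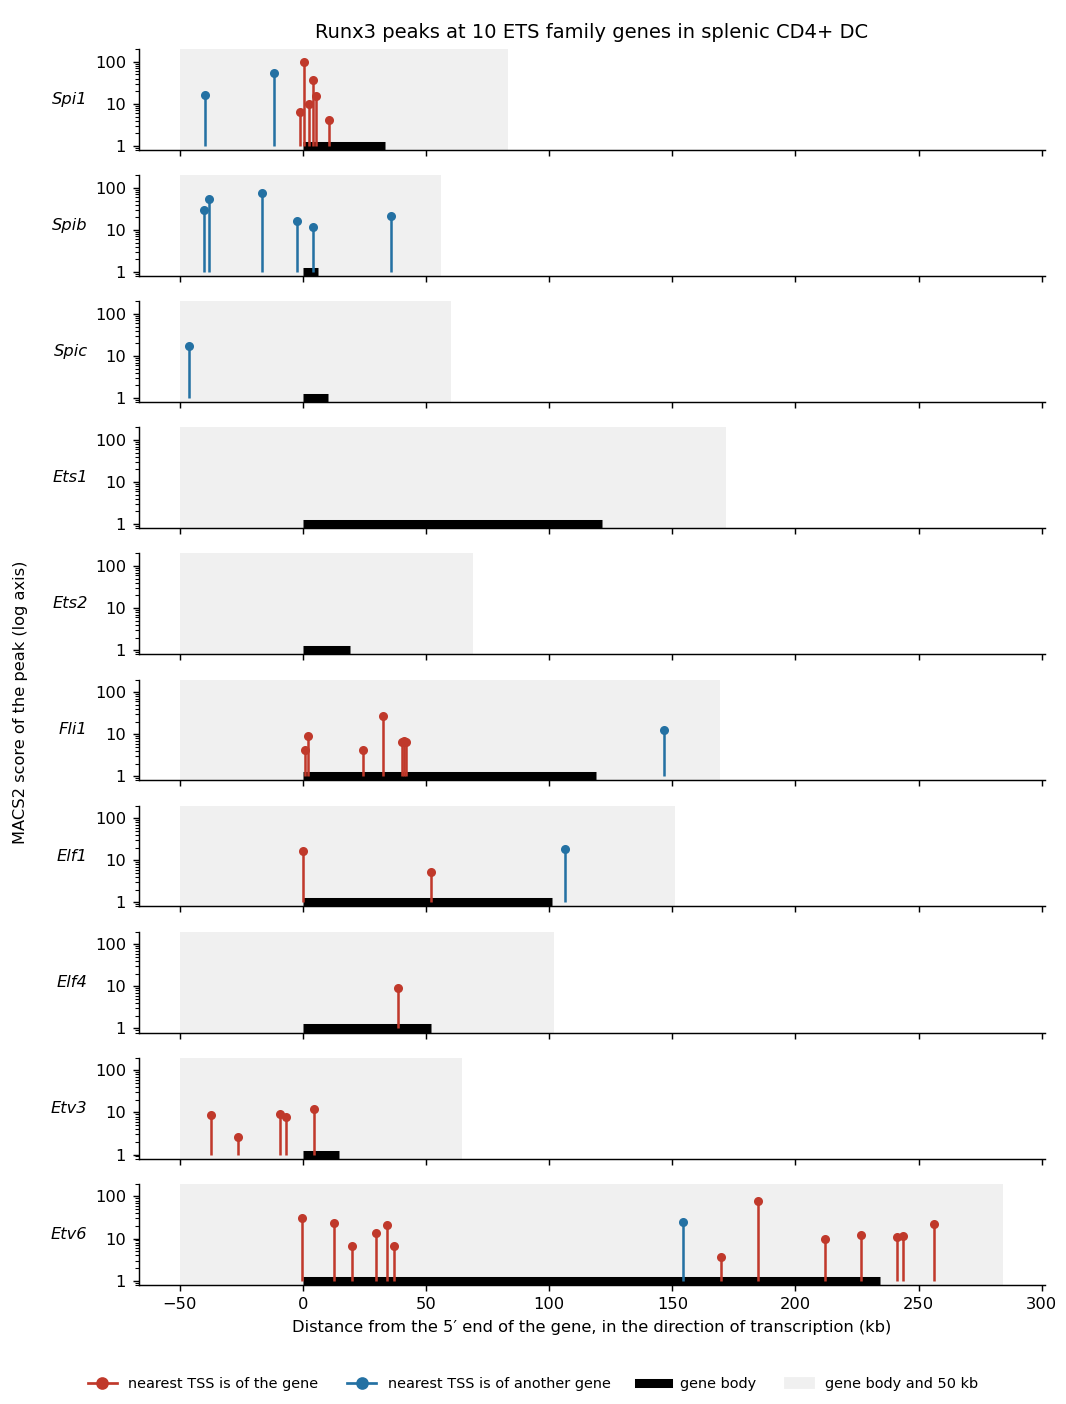
Each panel shows 1 gene, with the distance of the peak centre from the 5′ end of the gene in kb (horizontal axis, in the direction of transcription) and the MACS2 score of the peak (vertical axis, logarithmic); the black bar is the gene body and the grey area adds 50 kb on each side. Peaks nearest to a TSS of the gene are red and others blue, and 5 of the 6 red peaks of Spi1 crowd around its start while those of Etv6 spread over the gene and its 3′ flank.

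Spi1 (chr2:90922547-90955913, plus strand, listed under its older symbol Sfpi1) carried the strongest peak of the set. This peak (chr2:90922833-90923437) is centred in intron 1, 570 bp downstream of the nearest Spi1 TSS, with a score of 99.3 and rank 166 of the 15121 peaks. It holds TGTGGT at 3 positions, and 2 of them, printed above, stand in the same direction with 3 bases between them. A further 3 peaks in the 5′ part of intron 1, at 2364 bp, 4088 bp and 5276 bp from the nearest TSS, scored 9.84, 37.1 and 15.7. Together with the peak 1327 bp upstream of the TSS, with a score of 6.57, these 5 peaks lie within 7.02 kb. A last peak in intron 1, with a score of 4.23, is centred 3256 bp upstream of the TSS of a shorter transcript. The scores inside the locus therefore ranged widely, with the peak nearest to the main start at the top.

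The 2 other Spi1 peaks cover starts of neighbours. The peak chr2:90910321-90911096 scored 54.7, lies 11839 bp upstream of Spi1 and is centred 134 bp from a TSS of Slc39a13, a zinc transporter gene. The peak chr2:90882728-90883203 scored 16.5 and is centred 23 bp from a TSS of Rapsn, 39582 bp upstream of Spi1. No peak was called between them. TGTGGT was present in 6 of the 8 peaks of the locus, and absent from the one at the Slc39a13 start.

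Spib (chr7:51781365-51787441, minus strand), the close relative of PU.1 that acts in plasmacytoid DC and B cells, lies among many genes, with starts of 6 other protein-coding genes in its window. The peak with the highest score, 74.2 (chr7:51803977-51804507, rank 414), is centred 23 bp from a TSS of Pold1, the gene of the catalytic subunit of DNA polymerase delta, 16801 bp upstream of Spib. Peaks with scores of 54.7 and 29.0 lie 2317 bp and 112 bp from the TSS of Napsa, an aspartic protease gene. At 2346 bp upstream of the Spib TSS lay a peak with a score of 16.5, 228 bp from the TSS of another Pold1 transcript. The only peak inside Spib, in exon 6, scored 12.0 and was nearer to Mybpc2, while the peak at 2310044H10Rik scored 20.9. No peak was within 1 kb of the Spib TSS, and the median score of the window was 24.9.

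Spic (chr10:88137517-88147760, minus strand), known for its part in red pulp macrophages of the spleen, had no peak in its body. Its single peak (chr10:88193544-88194159) scored 16.9, lies 46091 bp upstream and is centred 5 bp from the TSS of the noncoding transcript Gm4925. This peak lies close to the edge of the window and holds no TGTGGT. It also overlaps an annotated UTR, and 1 other protein-coding gene has a TSS in the window.

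Fli1 (chr9:32229793-32348974, minus strand), a factor of blood stem cells and megakaryocytes, had 7 peaks in intron 1 and 1 peak in its 3′ flank. The strongest (chr9:32316126-32316630) scored 27.6 and is centred 32596 bp downstream of the TSS. The peaks nearest to the TSS, at 940 bp and 2056 bp, scored 4.23 and 9.16, so that in contrast to Spi1 the top score was far from the start. A group of 3 weak peaks with scores of 6.57, 6.85 and 6.57 lies within 1648 bp, centred 40345 to 41721 bp downstream of the TSS, and a further weak peak, at 24571 bp, scored 4.23. The flanking peak, with a score of 12.7 and 3 positions of TGTGGT, lies 967 bp from a TSS of Kcnj1, a potassium channel gene. The median score of the 8 peaks was 6.71, below the list median of 12.1.

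Ets1 (chr9:32443806-32565405, plus strand) is the neighbour of Fli1 and is best known in lymphocytes. The windows of the pair overlap by 5169 bp, and no peak lay in the overlap. The peak nearest to Ets1 was the weak one at the Fli1 start, 95772 bp upstream of the gene. For Ets2 (chr16:95923682-95942658, plus strand), which is phosphorylated in response to growth factors in macrophages, the nearest peak (chr16:96048812-96049378) lay 106437 bp downstream of the gene and scored 85.8. A missing peak says only that none passed the threshold of the peak caller, which is not given in the sources used here.

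Elf1 (chr14:79881001-79982283, plus strand), a factor expressed widely in blood cells, had a peak over its 5′ end, centred 25 bp upstream of the TSS, with a score of 16.5. The peak in intron 1 (chr14:79933019-79933365) scored 5.36 and holds TGTGGT at 2 positions 5 bases apart. The third, with a score of 18.1, is centred 104 bp from the TSS of Sugt1, which encodes a co-chaperone. Elf4 (chrX:45764223-45816309, minus strand), known for restraining the division of T cells, had 1 peak with a score of 9.37 in intron 1, with 1 TGTGGT. The gene lies on chromosome X, and the labels do not give the sex of the mice.

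Etv3 (chr3:87329329-87344078, plus strand), a transcriptional repressor of macrophages, had no other protein-coding start in its window, and its 5 peaks were all nearest to its own TSS. Their scores were low, at 2.67, 7.84, 8.49, 9.37 and 12.0, all below the list median. Lying upstream were 4 of them, from 6839 bp to 37232 bp, and the strongest lay in intron 4. TGTGGT was present in 4 of the 5, and the peak without it was the weakest.

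Etv6 (chr6:133985718-134220176, plus strand), a repressor needed by blood stem cells in the bone marrow, had 10 peaks in introns, 1 peak at its 5′ end and 3 in its 3′ flank. The peak at the 5′ end (chr6:133984908-133985624) scored 31.3, with its centre 452 bp before the TSS. In intron 1 lay 5 peaks, with scores of 23.2, 6.57, 13.4, 20.8 and 6.57 from 5′ to 3′. They were followed by 117 kb without a peak. In intron 2 lay 3 peaks with scores of 24.1, 3.68 and 76.9. The last of these (chr6:134170113-134170972, rank 380) was the strongest of the gene and the widest of the 46, at 860 bp, and is centred 13076 bp upstream of the TSS of a shorter transcript. The peaks in introns 4 and 6 scored 9.84 and 12.0, with the former centred 23 bp from a further Etv6 TSS. The 3 peaks of the 3′ flank scored 11.0, 11.2 and 22.3. No start of another protein-coding gene lay in the window, and peaks at or above the upper quartile of the list were found at the 5′ end and in introns 1 and 2.

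The lowest score of the 46 peaks was 2.67, the highest 99.3 and the median 12.0, against a median of 12.1 for the whole list. The upper quartile of the list, 23.2, was reached by 11 of them (23.9%) and by 25.4% of all peaks. These 11 were 4 peaks of Etv6, 3 of Spi1, 3 of Spib and 1 of Fli1. The list median was reached by 22 of the 46 (47.8%, against 50.0% of the list). The median number of peaks per ETS gene was thus above that of all protein-coding genes, although 4 of the 10 genes (Ets1, Ets2, Spic and Elf4) had 0 or 1 peak, while the median and upper quartile of the scores were close to those of the list. Widths ran from 253 to 860 bp with a median of 438 bp, against 406 bp in the list, and the median GC content was 50.8% against 50.7%. Within 1 kb of any TSS lay 14 peaks (38.0% of the list did), with a median score of 17.5, and the 32 other peaks had a median of 9.61. In the list these medians were 12.4 and 12.0.

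**Figure D3:**
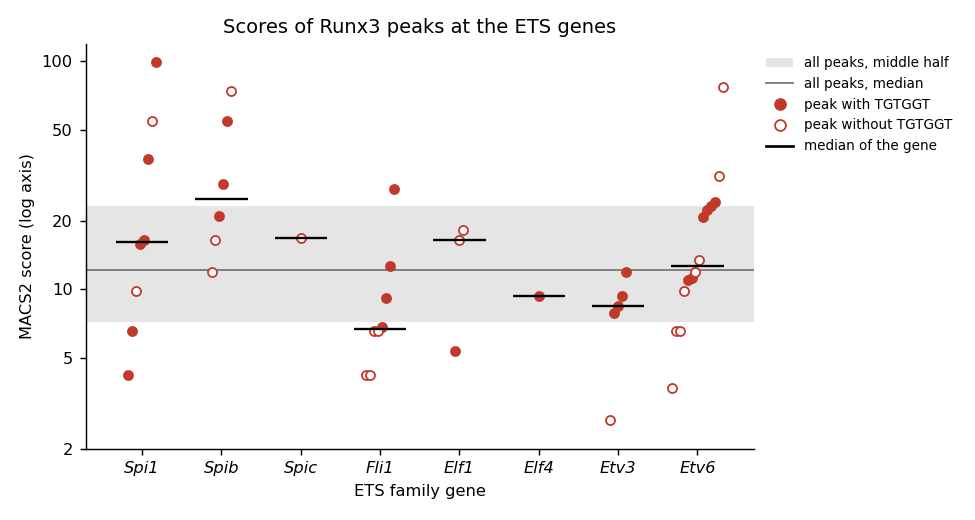
MACS2 score (vertical axis, logarithmic) of each Runx3 peak at the 8 ETS genes with a peak (horizontal axis). Filled points hold TGTGGT and open points do not, black lines are medians of the gene, and the grey line and band are the median and the range between the quartiles of all 15121 peaks. Points of Etv3 and Elf4 lie below the grey line, and those of Spi1, Spib, Fli1 and Etv6 reach above the band.

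The RUNX hexamer TGTGGT was found on either strand in 25 of the 46 peaks. This is 54.3%, with a Wilson 95% interval from 40.2% to 67.8% that reflects counting error alone, and 54.0% of all peaks held it. Only exact matches within the peak were counted here. The study reported the RUNX motif in a larger share of its bound regions, and the source of this difference was not tested. Windows of the same width 10 kb downstream held the hexamer in 11 of 44 cases for the ETS gene peaks and in 30.9% for all peaks. For these windows downstream means towards higher coordinates, whatever the strand of the gene. Windows that overlapped a peak, passed the chromosome end or held undetermined bases were left out. In 23 of the 25 peaks the nearest hexamer lay within 100 bp of the peak centre, as it did in 78.1% of the list's peaks with the hexamer. The median distance was 41 bp, against 46 bp in the list. The hexamer was in 1 of the 5 peaks within 1 kb of a TSS of an ETS gene, the strongest Spi1 peak, in 4 of the 9 at the starts of other genes and in 20 of the 32 peaks farther from any TSS. In the list 34.4% of peaks within 1 kb of a TSS and 66.1% of the others held it. The median score was 12.7 for ETS gene peaks that hold the hexamer and 12.0 for the rest, against 14.2 and 10.5 in the list.

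Of the 11 peaks in the upper quartile 4 held no TGTGGT, where 35.0% of all upper-quartile peaks lacked it. The 4 were the peak in intron 2 of Etv6 printed above, the one at the 5′ end of Etv6, and those at the starts of Pold1 and Slc39a13. When C or T was allowed at the first and the third base of the hexamer, the match was found in all of these except the Etv6 intron peak. The Etv6 intron peak thus combined a score of 76.9 with no match to either form of the RUNX motif, but held TGACGT and 1 match to the ETS-IRF composite element (EICE), at which ETS and IRF factors bind side by side. The wider form of the RUNX motif was in 35 of the 46 peaks and in 76.6% of the list. It was also in 36.4% of the windows downstream of the ETS gene peaks and in 39.0% of those of all peaks.

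TGTGGT occurred at 2 or more positions in 9 of the 46 peaks, where 18.5% of the list had it more than once. In 3 peaks neighbouring hexamers were at most 10 bp apart, where 2.86% of the list had such a pair. These are the strongest Spi1 peak, the peak at the Rapsn start and the Elf1 intron peak. The limit of 10 bp was chosen after the sequences were seen.

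Motifs of ETS factors were also searched in these peaks. The PU.1 motif GAGGAAGT was in 5 of the 46 peaks (14.6% of the list; 4.55% of the windows downstream of the ETS gene peaks), and CCGGAAGT, a motif of other ETS factors, was in 1, a peak upstream of Etv3 (4.58% of the list; 0 of those 44 windows). The EICE was in 6 (7.81% of the list; 6.82% of those windows). TGTGGT and GAGGAAGT occurred together in 3 peaks, 1 of Spi1 and 2 of Fli1 (8.62% of the list), which are the regions printed above. In the Spi1 region 39 bases separate the motifs, and in the Fli1 regions 50 and 220 bases do. The AP-1 motif TGANTCA was in 5 (13.2% of the list; 20.5% of those windows).

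TGACGT, the motif that the study assigned to zDC, a factor of DC also called Zbtb46, was in 12 of the 46 peaks, or 26.1% (Wilson 95% interval 15.6% to 40.3%), against 11.0% of the list. The windows downstream held it in 4.55% for the ETS gene peaks and in 4.19% for all peaks. Of the 12 peaks 4 were counted for Etv6, 3 for Spib, 2 each for Spi1 and Etv3 and 1 for Elf1. Within 1 kb of a TSS lay 4 of the 12, all at starts of other genes, namely Slc39a13, 2310044H10Rik, Napsa and Sugt1. The Spib exon peak, which also held the motif, was nearest to Mybpc2. The higher share therefore covers peaks near neighbouring genes as well as peaks nearest to the ETS genes. In the peaks of Spib, Elf1 and the Slc39a13 start the motif lay 195 to 286 bp from the peak centre, and in the others 47 to 100 bp. Distances of this motif in the list are not given here. A TGACGT followed by CA is its own reverse complement and counts once on each strand, and the 4 positions in the weak Etv6 peak chr6:134005654-134005930 are 2 such palindromes. TGTGGT was also present in 5 of the 12. The difference in share was not tested. Peaks of 1 gene are not independent, which the Wilson intervals here do not take into account.

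**Figure D4:**
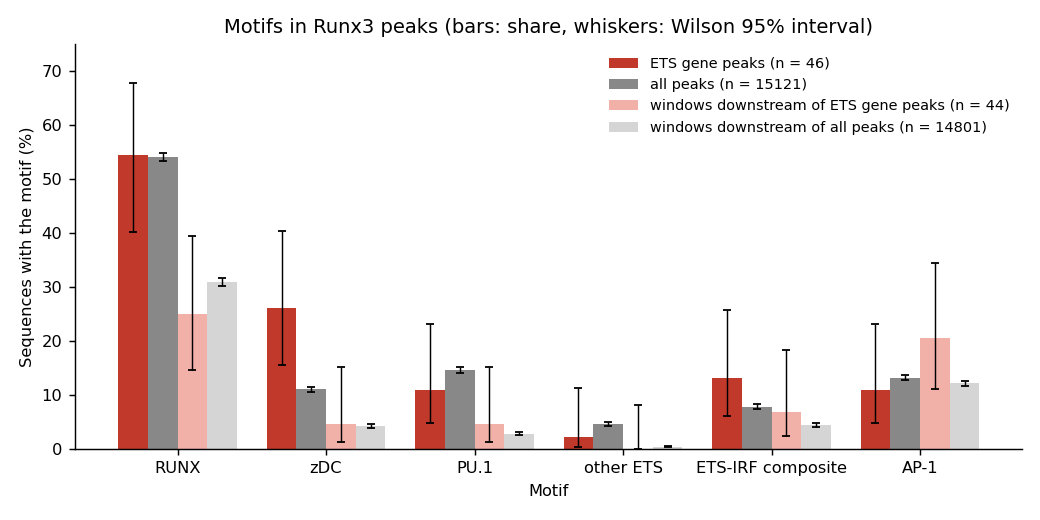
Share of sequences in percent (vertical axis, bars, with Wilson 95% intervals as whiskers) that hold each of 6 motifs (horizontal axis). The sets are the 46 ETS gene peaks, all 15121 peaks, and windows of equal width 10 kb downstream of each in genome coordinates (44 and 14801). The red and dark grey bars of the RUNX hexamer are alike at 54.3% and 54.0%, and the red bar of the zDC motif is at 26.1% beside 11.0%.

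Of the 17 other mouse ETS genes 16 were matched to the annotation, and Etv3l was not. Peaks lay at 12 of the 16, against 62.6% of all protein-coding genes. There were 32 peaks in all, with a median of 2 per gene and a median score of 13.1. The median density of the 16 genes was 1.49 peaks per 100 kb of window, against 0.880 for all protein-coding genes. Erf, a repressor under the control of ERK, had 8 peaks with a highest score of 89.4, all of them nearest to another gene's TSS and none in its body. Its density of 7.39 peaks per 100 kb was above that of 98.8% of protein-coding genes and of each of the 10 genes above. Elf2 and Elk4 had 4 peaks each, Elk1 had 3, and Etv2, Etv4, Elf3, Ehf and Gabpa had 2 each. Etv5, Elf5 and Elk3 had 1 each, and Erg, Fev, Etv1 and Spdef had none. A peak within 1 kb of their own TSS was found for 3 of the 16, Ehf, Elk4 and Gabpa, against 24.9% of all protein-coding genes. For 9 of the 32 peaks the nearest TSS belonged to the ETS gene, where for the 10 genes above it did for 34 of 46. With 1 TSS per gene, its 5′ end, the 34 became 27, and the 9 was not recomputed. The comparison does not allow for starts of other protein-coding genes. The windows of Etv3, Etv6 and Ehf held none of these, and those of Spib and Erf held 6 each. A peak in the gene body was found at 4 of the 16, against 23.2% of all protein-coding genes.

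**Figure D5:**
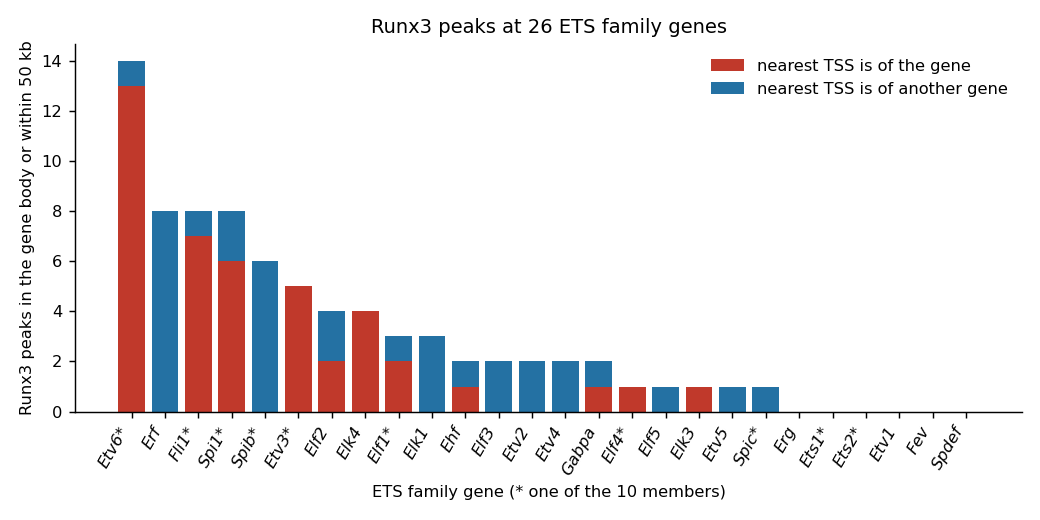
Number of Runx3 peaks in the gene body or within 50 kb (vertical axis) at 26 ETS family genes (horizontal axis), split by whether the nearest TSS belongs to the gene (red) or to another gene (blue), with an asterisk at the 10 genes of the main set. Etv6 leads with 14, and the 8 peaks of Erf and the 6 of Spib are all blue.

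Other families of transcription factors of DC give a scale for these counts. All 9 IRF genes had a peak, where 62.6% of all protein-coding genes did. The IRF genes had 38 peaks in all, with medians of 4 per gene and 3.40 per 100 kb, and a median score of 16.6. Of these peaks 13 were nearest to a TSS of the IRF gene, and 36.8% held TGTGGT. Of the 5 Ikaros family genes 4 had a peak, beside the same 62.6%, with 9 peaks in all, a median of 1 per gene and a median score of 9.84. Their median density was 0.868 peaks per 100 kb, and that of all protein-coding genes was 0.880. Of the 9 peaks 3 were nearest to a TSS of the Ikaros family gene, and 66.7% held TGTGGT.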

How the data were processed

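Runx3 ChIP-seq of sorted splenic CD4+ DC comprised 2 Runx3 IP and 2 input control samples. The authors base-called reads of 50 bp with CASAVA 1.8, aligned them uniquely to mm9 with bowtie and called peaks with MACS2 on the pooled samples. Their other versions, the peak threshold and the handling of duplicates are not given in the sources used here. The deposited list gives a start, an end and a score per peak. No source gives a unit for this score, which served only to compare peaks within the list. Per-sample depth was not analysed here.

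Positions are on mm9, counted from 1. Genes came from GENCODE M1 and sequences from NCBIM37, the same assembly. Of the 10 symbols 9 matched directly and Spi1 through its RefSeq synonym Sfpi1. A TSS is the 5′ end of any annotated transcript, and exon and intron numbers follow the longest coding transcript. Motifs were searched on both strands with overlaps allowed.

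The members, motifs and lists were chosen with earlier results of these data known. By rule the text names each gene's strongest peak, peaks within 1 kb of its TSS and, without a peak, the nearest one, and other peaks and motif pairs were singled out after their values were seen. Counting was tested on simulated data. Python 3.11.15, pandas 2.3.3, scipy 1.17.1 and pysam 0.24.0 were used.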

Additional observations from a re-analysis of the deposited data

How the results depend on the processing

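The number of peaks at the 10 ETS genes was 46. It was 26 in the gene bodies alone, 22 when scores under the list median were left out and 11 when those under the upper quartile were, and stayed within 1.5 times for the other windows, any base of the peak, joined peaks and the nearest protein-coding TSS. With scores on chromosome X halved or doubled and the list median as limit it was 22 and 23, and Elf4 passed the limit when they were doubled. Genes with a peak fell from 8 to 4 at the upper quartile, and other ETS genes with a peak from 12 to 4 there, to 4 in the gene bodies alone and to 7 by the nearest protein-coding TSS. The share of protein-coding genes with a peak, 62.6%, was 23.2% in the gene bodies alone, 43.4% with 10 kb, 72.1% with 100 kb, 47.3% and 31.0% at the 2 score limits, 36.8% by the nearest TSS, and 46.9% and 47.6% with the scores on chromosome X halved and doubled. The share of peaks with TGTGGT rose from 54.3% to 76.1% when C or T was allowed at the first and the third base, and the list rose to 76.6%. The other 34 values recomputed for the whole set stayed within 1.5 times of the count, or within the interval of the median or share. Of 100 peak counts of single genes 35 moved by more than 1.5 times. By the nearest protein-coding TSS Spib and Spic had 0 peaks and Ets2 had 1. No paired analysis was possible because the replicates were pooled before the peaks were called. Leaving out a replicate was not possible for the same reason. Depth and the unstated threshold limit how weak a peak can be in the list.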
